A study of Mus musculus with 48 samples.

Results

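Glucocorticoid response genes were followed across 5 groups of mouse samples. The 10 members are Nr3c1, Hsd11b1, Tsc22d3, Fkbp5, Klf9, Zbtb16, Per1, Sgk1, Mt1 and Mt2, out of 46517 genes in the count table. They were picked by name and chosen by their levels in these same samples, so their levels and fold changes are given as a description. Where a member is said to be called, this only places it beside the threshold used for all genes and is no test of it. Glucocorticoids are steroid hormones of the adrenal gland that pass into cells and bind the glucocorticoid receptor, which is held ready by chaperones in the cytoplasm and moves to the nucleus once bound. There it binds DNA elements made of paired hexamers and raises or lowers transcription of nearby genes. In liver the receptor is best known for raising gluconeogenesis and amino acid breakdown, and dexamethasone, a synthetic agonist of the receptor, is a usual supplement of hepatocyte culture media.

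The groups were 5 explants, 3 irises, 3 livers, 3 hepatocyte preparations and 2 samples of in vitro spheroids, all labelled C57BL/6N and wild type albino. Explants, numbered 1, 2, 4, 5 and 6, were spheroids engrafted in the anterior chamber of the eye and dissected 2 months post-tx together with surrounding iris. Irises carried no graft. Hepatocyte preparations were liver cells enriched for hepatocytes by collagenase perfusion and a density gradient, and handled in medium with dexamethasone. Spheroids were aggregates of such cells kept in culture, first in that medium and then in a serum-free medium with less dexamethasone, whereas no steroid is named in the methods for livers or irises. The methods describe adult mice of both sexes, and the hour of sampling is not given in the sources used here. Nothing in the labels says that samples of a group came from separate animals or cultures, so p-values measure only the spread between these samples. Each sample was sequenced as 3 technical libraries, which were summed.

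Total counts per sample ran from 2718518 to 6789648, and the counts of the members from 17 for Mt2 in a liver to 5587 for Sgk1 in an explant. By sums of markers, the groups carried those of their labelled tissue, with lower levels of markers of the other tissue in each. The 8 hepatocyte markers summed to between 12400 and 12900 TPM (reads scaled to gene length and library total) in livers and to between 1540 and 1820 TPM in irises. Their sums were 12700 to 15500 TPM in hepatocyte preparations and 10100 to 11100 TPM in spheroids. Of the 8, Cyp2e1 was at 137 to 152 TPM in spheroids, below irises (206 to 228 TPM) and livers (2110 to 2710 TPM). It was 26.1 times lower in spheroids than in hepatocyte preparations (edgeR adjusted p = 0.00012), where the other 7 were not called. The 4 pigment cell markers (Tyrp1, Dct, Pmel and Mlana) summed to between 8470 and 8860 TPM in irises, 537 to 551 TPM in livers, 546 to 590 TPM in hepatocyte preparations and 434 to 524 TPM in spheroids. In explants these sums were 4730 to 6470 TPM and 6050 to 7690 TPM. The iris share of each explant, solved from the authors' uncorrected and corrected tables, ran from 59%, in explant 6, to 82%, in explant 1. In such bulk samples fewer cells of a type and less RNA per cell cannot be told apart.

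Members were compared between groups with the fit across all genes (edgeR quasi-likelihood). A gene was called when its Benjamini-Hochberg adjusted p was under 0.05 and its log2 fold change was past 1 in either direction. In spheroids against hepatocyte preparations, 4 members were called higher (Fkbp5, Sgk1, Zbtb16 and Mt2) and 1 lower (Hsd11b1), where 8.13% and 9.11% of the 12247 genes tested were called higher and lower. Genes higher in spheroids were 47.2% of the called genes, and 65.5% when counts were scaled by library size alone, which shifted the median of all genes to 0.265. In spheroids against livers 5 were called higher, Mt1 being the addition, and again Hsd11b1 was lower, where 8.24% and 11% of 12959 genes were called. These 2 comparisons share the spheroids. No member was called between hepatocyte preparations and livers, where 0.409% of 12236 genes were higher and 2.31% lower, nor between explants and irises, where 6.16% of 16764 genes were higher and 0.316% lower. Since the members were selected on these values, nothing is read from their calls, here or below, or from the counts of them. The median log2 fold change of the members was 0.76 in spheroids against hepatocyte preparations, 0.58 against livers, -0.14 in hepatocyte preparations against livers and -0.24 in explants against irises, and the median of all genes tested lay between 0.0073 and 0.015 in the 4 comparisons.

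**Figure D1:**
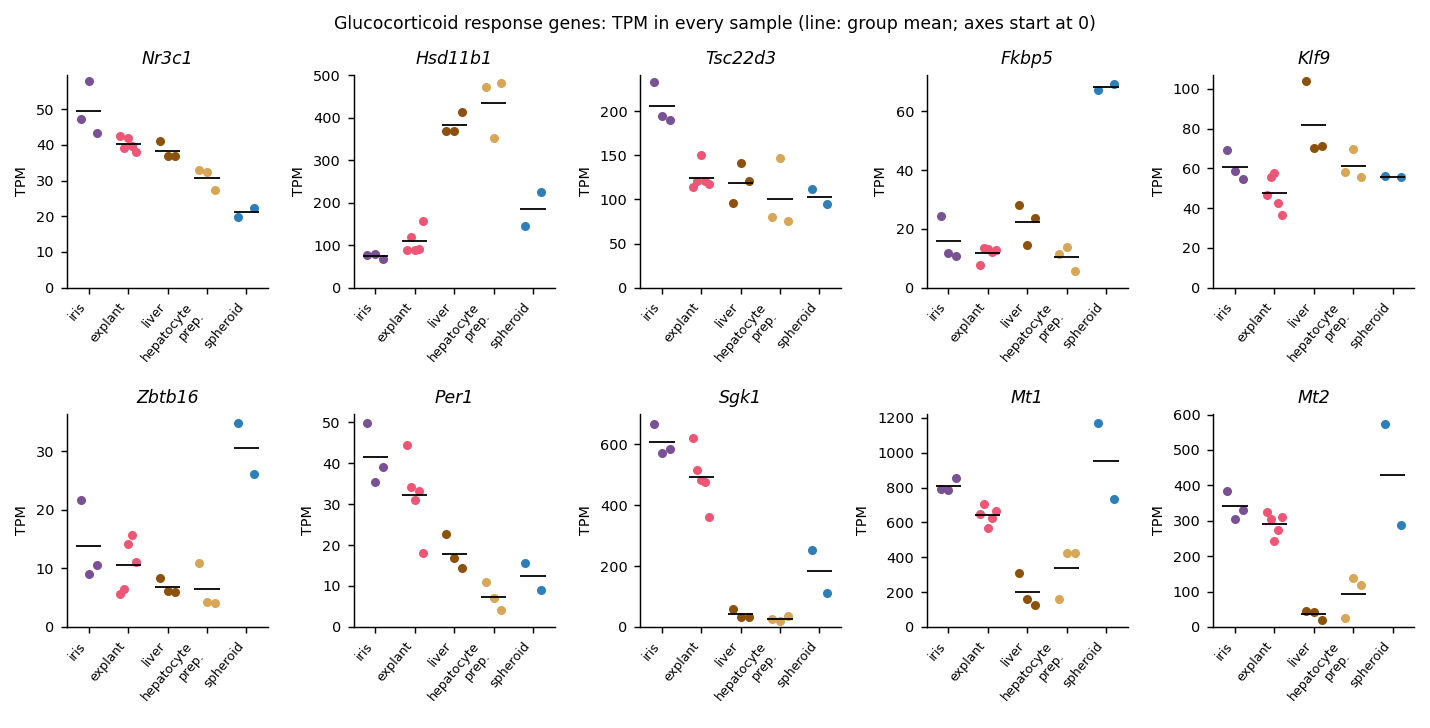
TPM (vertical axes, starting at 0) of the 10 members in each of the 16 samples, grouped as iris, explant, liver, hepatocyte preparation and spheroid, with a line at each group mean. Fkbp5 reached 67.4 and 69.3 TPM in the 2 spheroid samples and at most 28.1 TPM elsewhere, while Sgk1 lay at 362.0 TPM or more in every iris and explant and at most 60.0 TPM in livers and hepatocyte preparations.

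**Figure D2:**
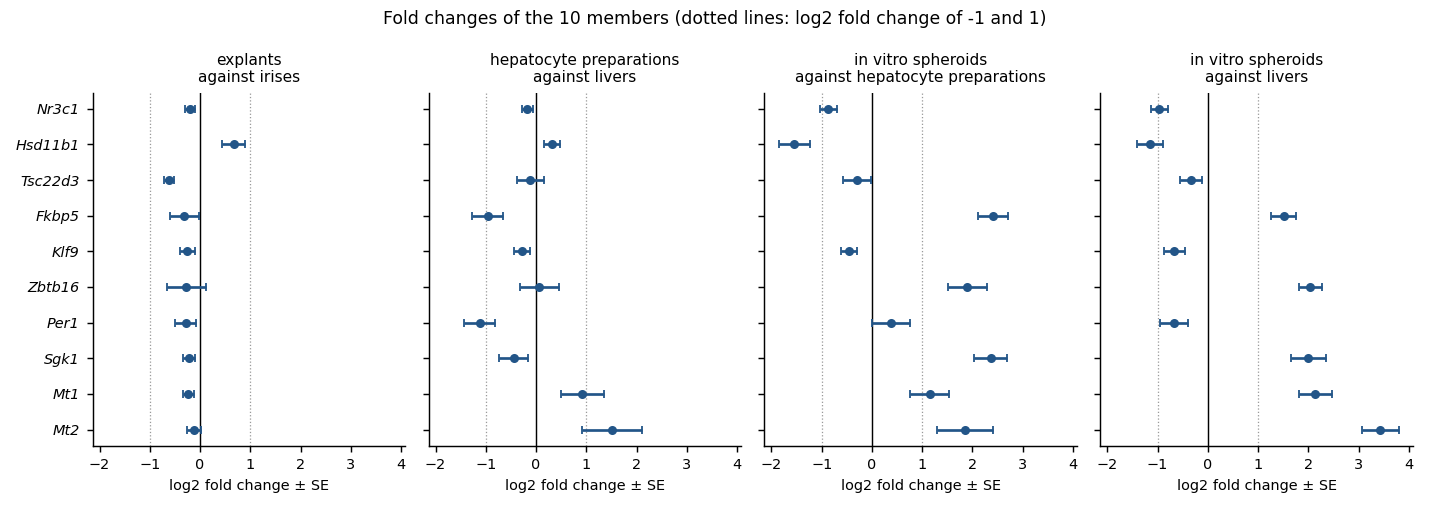
Log2 fold change of each member in the 4 comparisons (horizontal axes), with bars for the standard error of the edgeR fit and dotted lines at -1 and 1. Fkbp5, Sgk1, Zbtb16, Mt1 and Mt2 lie past 1 in both spheroid comparisons, Mt2 highest against livers at 3.43. Hsd11b1 lies past -1 in both, whereas Tsc22d3 lies between -0.63 and -0.11 in all 4.

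Nr3c1 encodes the glucocorticoid receptor (ENSMUSG00000024431.13, chr18:39410545-39491301, minus strand, mm10). Its level was 47.2, 57.8 and 43.4 TPM in irises, 42.5, 39, 42.1, 39.6 and 38.1 TPM in explants, 41, 36.8 and 36.9 TPM in livers, 32.9, 32.4 and 27.2 TPM in hepatocyte preparations and 19.9 and 22.4 TPM in spheroids. Both spheroid samples lay below all other samples, and the groups fell in the order iris, explant, liver, hepatocyte preparation and spheroid, in which only explants and livers overlapped. The mean in spheroids was 21.2 ± 1.8 TPM (SD, n = 2) against 38.2 ± 2.4 TPM (SD, n = 3) in livers, a log2 fold change of -0.97 ± 0.17 (SE). Against hepatocyte preparations (30.9 ± 3.1 TPM, SD, n = 3) it was -0.87 ± 0.18 (SE), or -0.62 with library size alone. Without the first spheroid sample the values against livers and hepatocyte preparations were -0.80 and -0.67, and without the second, where Nr3c1 was called lower in both, -1.20 and -1.09.

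Hsd11b1 encodes the reductase that turns inactive 11-keto steroids back into active glucocorticoid inside the cell (ENSMUSG00000016194.13, chr1:193221634-193264075, minus strand). By its mean TPM it was the most abundant member in livers, at 367.9, 369.6 and 414.0 TPM, and also in hepatocyte preparations, at 472.0, 352.3 and 481.4 TPM. The spheroid samples held 144.7 and 224.3 TPM, below every liver and every hepatocyte preparation. The log2 fold change in spheroids was -1.55 ± 0.31 (SE) against hepatocyte preparations and -1.16 ± 0.26 (SE) against livers. Without the first spheroid sample these values were -1.17 and -0.81, and without the second -2.05 and -1.67, and the call against livers was lost without the first spheroid sample or the second liver. The irises had 76.6, 80.0 and 67.2 TPM and the explants 89.1, 119.4, 88.5, 91.3 and 156.8 TPM, so that every explant was above every iris, the highest being explant 6, which had the smallest iris share.

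Of 13 further genes of the receptor machinery (ligand supply, chaperones and coregulators), 12 were tested in each comparison. This list and those below were chosen with earlier results of these data known. Their adjusted p-values and medians are therefore not independent of that choice. The genes called in spheroids were Serpina6 and Srd5a1, with Nr3c2 against livers alone, and all 3 were lower. H6pd, which supplies the cofactor of the Hsd11b1 reductase, was at a mean of 256.4 TPM in spheroids against 213.1 TPM in hepatocyte preparations and 220.9 TPM in livers and was not called. None of the chaperones and coregulators of the list was called in any of the 4 comparisons. Serpina6, which encodes the corticosteroid-binding globulin secreted by liver, was at 32.4 and 32.9 TPM in spheroids against 447 to 898 TPM in hepatocyte preparations and 809 to 1058 TPM in livers, 26.1 times lower (edgeR adjusted p = 0.00021) and 31.4 times lower (edgeR adjusted p = 5.9e-05). Srd5a1, a 5-alpha reductase that inactivates glucocorticoids, fell to 32.2 and 34.6 TPM, 7.02 times lower than in hepatocyte preparations (edgeR adjusted p = 0.00068) and 4.26 times lower than in livers (edgeR adjusted p = 0.0061). Nr3c2, the mineralocorticoid receptor, was lower in spheroids than in livers, at a mean of 4.27 against 8.86 TPM (edgeR adjusted p = 0.019), a call that was lost without the third liver (0.063), the first spheroid sample (0.052) or the second (0.074). The list median was -0.20 against hepatocyte preparations and -0.26 against livers, beside medians of all genes near 0. In explants Serpina6 was 42.2 times the iris level, at 131 to 378 against 6.20 to 8.02 TPM (edgeR adjusted p = 0.00019), along with all 8 hepatocyte markers, which were called higher there. None of the 12 genes was called between hepatocyte preparations and livers.

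Fkbp5 encodes a co-chaperone that the receptor induces and that in turn lowers its affinity for hormone (ENSMUSG00000024222.15, chr17:28399095-28517524, minus strand). It stood at 67.4 and 69.3 TPM in spheroids, above each of the other 14 samples. The livers had 28.1, 14.6 and 23.8 TPM and the hepatocyte preparations 11.3, 13.9 and 5.65 TPM, with no overlap between them. The irises had 24.5, 11.9 and 10.7 TPM and the explants 7.61, 13.3, 13, 12 and 12.7 TPM, which overlapped. The spheroid mean was 68.4 ± 1.4 TPM (SD, n = 2). In the edgeR fit, spheroids were 5.30 times higher than hepatocyte preparations, a log2 fold change of 2.41 ± 0.29 (SE). Against livers they were 2.85 times higher, 1.51 ± 0.25 (SE). Hepatocyte preparations were below livers by a log2 fold change of -0.97 ± 0.32 (SE).

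Zbtb16, a zinc finger transcription factor long used as a sensitive glucocorticoid target (ENSMUSG00000066687.4, chr9:48654311-48835945, minus strand), was likewise highest in spheroids. The spheroid samples held 34.9 and 26.2 TPM, above every other sample. Irises had 21.6, 9.06 and 10.6 TPM, explants 5.66, 6.42, 14.3, 15.8 and 11.1 TPM, livers 8.33, 6.07 and 5.95 TPM and hepatocyte preparations 11, 4.21 and 4.06 TPM. Below the spheroids, each group overlapped with the next in order of its mean. The log2 fold change in spheroids was 1.90 ± 0.39 (SE) against hepatocyte preparations, or 2.55 without the first of these, and 2.04 ± 0.22 (SE) against livers. Without the first spheroid sample the former was no longer called.

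Tsc22d3 encodes GILZ, a leucine zipper protein that carries part of the anti-inflammatory action of glucocorticoids (ENSMUSG00000031431.12, chrX:140539528-140600659, minus strand). Its level was highest in irises, at 233.8, 194.4 and 190.5 TPM, and all 5 explants lay below them at 114.1, 121.0, 150.5, 120.6 and 117.7 TPM. Livers (95.7, 140.9 and 120.9 TPM), hepatocyte preparations (80.2, 146.8 and 75.4 TPM) and spheroids (111.7 and 94.4 TPM) overlapped with each other and, for livers and hepatocyte preparations, with the explants. In explants the mean of 124.8 ± 14.6 TPM (SD, n = 5) was 60.5% of the iris mean of 206.2 ± 23.9 TPM (SD, n = 3), and the log2 fold change was -0.63 ± 0.10 (SE). The other 8 members with a lower mean in explants stood at 74.8% to 85.7% of their iris mean. The summed pigment cell markers were at 77.7% and the summed markers of iris muscle and stroma at 78.1%. Single markers of the latter list ran from 73.2% (Acta2) to 161% (Col1a1), and the summed lens markers were at 14.1%. In spheroids against hepatocyte preparations, where Fkbp5 was 5.30 times higher, the log2 fold change of Tsc22d3 was -0.30 ± 0.29 (SE), while its TPM means were 103.0 and 100.8. That value was -0.04 with library size alone and 0.09 without hepatocyte preparation 2, and the difference was smaller than the spread between samples.

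The promoter windows of the members were read from RefSeq (GRCm38.p6), taking the 250 bases before each annotated start. They hold 16 windows of 8 members, and none for Nr3c1 and Zbtb16. AGAACA, the hexamer of the glucocorticoid response element, was searched on both strands. It was found in 4 of these 16 windows, belonging to Sgk1 and Tsc22d3, and in 16.1% of all 32851 windows of that length. The window of Tsc22d3 at chrX:140600523-140600772 (minus strand) has 1 match and that of Sgk1 at chr10:21993640-21993889 (plus strand) has 3, of which those starting 189 and 180 bases before the start face each other with 3 bases between them. The Sgk1 window also holds the E box CACGTG, which 6.02% of all windows have, starting 246 bases before the start and overlapping the outermost hexamer by 2 bases. The other 2 of the 4 windows with the hexamer are of further starts of Sgk1, with 1 match each. The E box was also found in a window of Fkbp5 and in a window of Per1. The hexamer is absent from the remaining windows of Tsc22d3 (chrX:140542669-140542918 and chrX:140548572-140548821). It is also absent from those of Sgk1 at chr10:21978422-21978671, chr10:21985854-21986103 and chr10:21994416-21994665. The 2 windows named here are shown because both genes were highest in iris yet parted in spheroids, and capitals mark the hexamers. A match in these letters is a description of the sequence and not of binding.
Sgk1: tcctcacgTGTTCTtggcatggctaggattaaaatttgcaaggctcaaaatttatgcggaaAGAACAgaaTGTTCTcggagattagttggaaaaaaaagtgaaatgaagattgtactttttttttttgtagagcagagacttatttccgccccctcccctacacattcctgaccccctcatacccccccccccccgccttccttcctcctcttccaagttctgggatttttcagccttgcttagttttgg
Tsc22d3: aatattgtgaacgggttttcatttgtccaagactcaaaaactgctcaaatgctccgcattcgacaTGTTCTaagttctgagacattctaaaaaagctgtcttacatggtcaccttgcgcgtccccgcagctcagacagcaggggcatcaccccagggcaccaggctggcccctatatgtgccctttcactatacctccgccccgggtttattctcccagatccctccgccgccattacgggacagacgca

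Sgk1 encodes a kinase that glucocorticoids and mineralocorticoids induce and that raises sodium channel activity (ENSMUSG00000019970.14, chr10:21882184-21999903, plus strand). It was abundant in irises, at 668.1, 573.0 and 585.7 TPM, and in explants, at 620.3, 515.0, 481.9, 477.6 and 362.0 TPM, and these groups overlapped. Livers had 60.0, 32.6 and 31.5 TPM and hepatocyte preparations 27.6, 20.1 and 34.5 TPM. The spheroid samples held 251.5 and 113.1 TPM, which differed by more than a factor of 2 from each other and were both above every liver and hepatocyte preparation and below every explant. The log2 fold change in spheroids was 2.36 ± 0.32 (SE) against hepatocyte preparations and 2.00 ± 0.34 (SE) against livers. Iris markers were also read beside these low values. Sgk1 stood at 6.79% of its iris mean in livers and at 4.50% in hepatocyte preparations, beside 6.30% and 6.53% for the pigment cell markers and 16.7% and 5.22% for the 5 markers of iris muscle and stroma. Single markers of the latter list ran from 1.47% (Myh11) to 35.3% (Dcn) in livers and from 1.38% (Myh11) to 7.68% (Dcn) in hepatocyte preparations. In spheroids the pigment cell markers were at 5.56%, those of iris muscle and stroma at 8.85% and Sgk1 at 29.9%. The part of iris RNA in the liver levels was not tested.

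Klf9 encodes a Krüppel-like factor induced by glucocorticoids in many cell types (ENSMUSG00000033863.1, chr19:23141226-23166911, plus strand), and it had the smallest ratio of highest to lowest group mean among the members. Livers had 103.8, 70.3 and 71.3 TPM, hepatocyte preparations 58.4, 69.6 and 55.4 TPM, irises 69.1, 58.6 and 54.5 TPM, spheroids 56.1 and 55.5 TPM and explants 46.5, 55.5, 57.9, 42.8 and 36.5 TPM. Livers were above hepatocyte preparations and spheroids without overlap, though only narrowly for the former. The log2 fold change in spheroids was -0.67 ± 0.20 (SE) against livers and -0.46 ± 0.17 (SE) against hepatocyte preparations, and -0.20 in the latter when counts were scaled by library size alone.

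Per1 belongs to the feedback limb of the circadian clock and is also a direct target of the receptor (ENSMUSG00000020893.16, chr11:69095217-69109960, plus strand). Irises had 49.8, 35.4 and 39.1 TPM, explants 44.4, 34.3, 31, 33.1 and 18.1 TPM, livers 22.6, 16.9 and 14.3 TPM, spheroids 15.7 and 9.0 TPM and hepatocyte preparations 11.1, 7.06 and 4.15 TPM. Each group overlapped with its neighbour in this order, but livers and hepatocyte preparations, 2 places apart, did not. Hepatocyte preparations were below livers by a log2 fold change of -1.12 ± 0.31 (SE). This value misses the call in the main fit and passes it with DESeq2, without a filter on low counts, with a single fit of all groups and without hepatocyte preparation 1.

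The other 14 genes of the circadian clock were set beside Per1, since the hour of sampling is not given. In explants against irises, Arntl, which encodes the activator BMAL1, rose 3.96 times, from 5.99 to 16.1 TPM in irises to between 21.6 and 45.3 TPM in explants (edgeR adjusted p = 0.0077). Its partner Npas2 rose 3.08 times, from a mean of 0.812 to 2.40 TPM (edgeR adjusted p = 0.025). Per2 fell by 2.14 times (edgeR adjusted p = 0.00079), Per3 by 2.12 times (0.0022), Tef by 2.06 times (0.00012) and Ciart by 3.87 times (0.012). Tef stood at 132 to 141 TPM in irises and 54.1 to 70.4 TPM in explants. The remaining 8 genes were not called, and the list median was -0.50. Among these 8, Nr1d1 had a log2 fold change of 0.20 and Bhlhe40 of -0.01, and Dbp of -0.92. Npas2 lost its call without iris 1 or iris 2 (both 0.12), Ciart without iris 1 (0.064), Per2 without iris 2, where its log2 fold change was no longer past -1 (adjusted p 0.0081), and Per3 likewise without explant 2 (0.0018). In a single fit of all 5 groups Npas2, Per2, Per3 and Tef were not called (0.20, 0.084, 0.14 and 0.060), nor was Npas2 with the replicate block (0.053).

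Spheroids against livers gave 1 clock gene higher and 6 lower of 13 tested, with a list median of -0.89. Arntl was 6.36 times higher, at 25.2 and 35.3 TPM against 1.68 to 7.49 TPM (edgeR adjusted p = 0.0075). The output regulators Dbp, Tef and Hlf were 8.37, 4.03 and 2.22 times lower (edgeR adjusted p = 0.00073, 0.0015 and 0.011), Per3 was 4.85 times lower (0.0011) and Nr1d1, the repressor of Arntl, 2.66 times lower (0.0069). The call of Hlf was lost without the first spheroid sample (0.057). Against hepatocyte preparations Nr1d1 alone was called, 6.55 times lower at 20.1 and 23.2 against 86.5 to 165 TPM (edgeR adjusted p = 0.0015). Hepatocyte preparations were spread widely in these genes, and none of 13 was called between them and livers. Preparation 1 had 21.3 TPM of Per2 against 3.94 and 4.45 TPM in preparations 2 and 3, 68.2 TPM of Dbp against 17 and 7.94 TPM, 60.5 TPM of Tef against 16.2 and 12 TPM, and 4.10 TPM of Arntl against 10.9 and 37.5 TPM. The same preparation was the highest of the 3 in Per1 and Zbtb16. What part the hour of sampling or the handling has in these values was not tested.

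**Figure D3:**
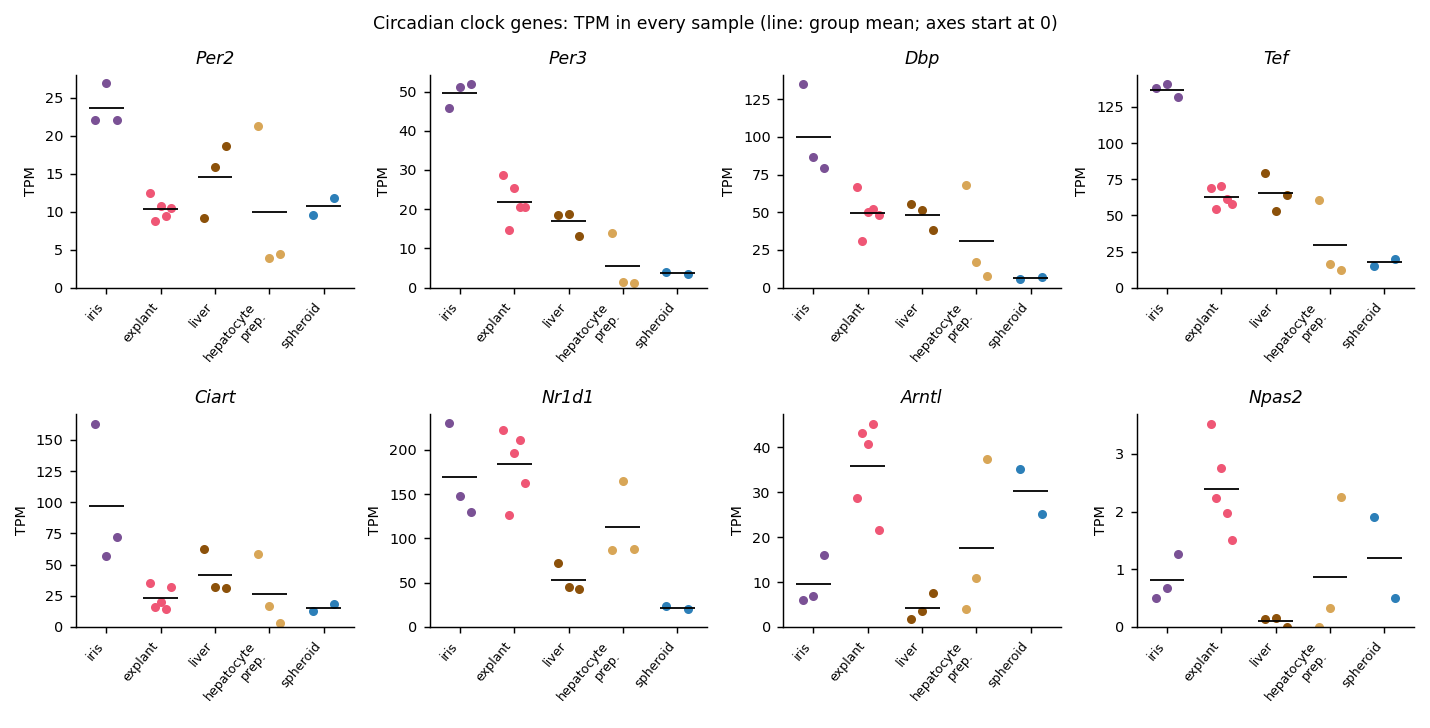
TPM (vertical axes, starting at 0) of 8 circadian clock genes in each of the 16 samples, with a line at each group mean. Hepatocyte preparation 1, the leftmost of its group, is apart from the other 2 in Per2, Per3, Dbp, Tef and Ciart, and Arntl reaches 21.6 TPM or more in every explant and spheroid sample but at most 7.49 TPM in livers.

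Mt1 and Mt2 encode metallothioneins, small cysteine-rich proteins that bind zinc and copper, and both are induced by glucocorticoids and by metals. They lie side by side on the plus strand, Mt2 at chr8:94172618-94173567 (ENSMUSG00000031762.6) and Mt1 at chr8:94179089-94180325 (ENSMUSG00000031765.7), with 5521 bases between them. Mt2 was at 574.3 and 286.6 TPM in spheroids, 385.3, 305.9 and 330.6 TPM in irises and 326.0, 305.5, 243.1, 274.2 and 310.4 TPM in explants, ranges that overlapped. Livers had 46.4, 41.8 and 20.2 TPM and hepatocyte preparations 25.2, 137.2 and 118.1 TPM, all below the former groups. In spheroids the log2 fold change of Mt2 was 3.43 ± 0.36 (SE) against livers, 10.8 times higher, and 1.85 ± 0.55 (SE) against hepatocyte preparations. The latter call was lost without the first or second spheroid sample or without hepatocyte preparation 3.

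Mt1 was more abundant than Mt2 in every sample and followed the same order of groups. It had 1171 and 731.8 TPM in spheroids, 791.2, 786.9 and 856.0 TPM in irises, 648.2, 703.9, 567.4, 628.2 and 664.9 TPM in explants, 159.5, 422.3 and 426.3 TPM in hepatocyte preparations and 307.1, 161.6 and 124.5 TPM in livers. Explants lay below irises without overlap. The log2 fold change in spheroids was 2.14 ± 0.33 (SE) against livers and 1.15 ± 0.39 (SE) against hepatocyte preparations. The latter value misses the call in the main fit, with limma-voom and with RLE size factors. It passes with DESeq2, library size alone, no filter on low counts, a single fit of all groups and the replicate block. Hepatocyte preparation 1, which stood apart in clock genes, was the lowest of its group in both metallothioneins. The ratio of Mt1 to Mt2 TPM was 1.99 to 2.59 in irises, explants and spheroids, but 3.08 to 6.33 in hepatocyte preparations and 3.87 to 6.62 in livers, where Mt2 rests on 17 to 37 counts per sample. Because duplicate reads had been removed, abundant short genes may be undercounted. Mt1 reached 0.657 counts per exon base in a library and Mt2 0.331, where the highest gene of 500 bases or more reached 1.44 to 1.70 in each library, and undoing such a limit changed the call of no member.

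The windows upstream of Mt1 and Mt2 are shown because these adjacent genes moved together, with capitals for the metal response element cores TGCACNC and TGCGCNC, searched on both strands. TGCACNC occurs in 10.4% of all 32851 windows and TGCGCNC in 12.5%. Mt2 has 2 matches of the former and 1 of the latter, starting 223, 50 and 128 bases before the start (chr8:94172368-94172617, plus strand), while Mt1 has 1 match of the former, 23 bases before it (chr8:94178839-94179088, plus strand). Neither holds the glucocorticoid hexamer in these 250 bases. The cAMP response element core TGACGTCA, present in 1.55% of all windows, was in none of the members' windows. Of the metal response element cores, TGCACNC was also in the window of Hsd11b1 and TGCGCNC in a window of Per1.
Mt1: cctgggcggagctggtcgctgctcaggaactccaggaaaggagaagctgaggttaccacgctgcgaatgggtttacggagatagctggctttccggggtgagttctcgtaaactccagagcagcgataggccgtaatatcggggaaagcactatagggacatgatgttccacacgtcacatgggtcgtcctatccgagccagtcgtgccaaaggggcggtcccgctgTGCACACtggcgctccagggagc
Mt2: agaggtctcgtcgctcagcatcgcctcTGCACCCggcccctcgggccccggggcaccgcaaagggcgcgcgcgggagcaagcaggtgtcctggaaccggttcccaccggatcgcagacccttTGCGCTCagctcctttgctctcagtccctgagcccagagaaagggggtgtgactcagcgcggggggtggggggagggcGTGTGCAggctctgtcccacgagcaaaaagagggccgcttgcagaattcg

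Genes of zinc transport and metal sensing were set beside the metallothioneins. Of 6 such genes (Slc30a1, Slc30a5, Slc39a4, Slc39a10, Slc39a14 and Mtf1), none was called in spheroids against hepatocyte preparations or livers, with list medians of -0.15 and -0.29, nor between hepatocyte preparations and livers. In explants Slc39a4, a zinc importer, was 22 times the iris level, at 74.9 to 244 against 5.13 to 9.24 TPM (edgeR adjusted p = 0.0008), and the other 5 were not called. Slc39a4 was at 112 to 156 TPM in livers, 109 to 220 TPM in hepatocyte preparations and 153 to 233 TPM in spheroids. All 8 hepatocyte markers were called higher in explants too, and the part of liver tissue in the Slc39a4 level was not tested.

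Other glucocorticoid targets were tested from a list of 18 known in many tissues. In spheroids against livers 6 of 17 tested were higher and none lower, with a median of 0.43. Cdkn1a, which encodes the cell cycle inhibitor p21, stood out at 397.9 and 479.1 TPM against 4.75 to 11.3 TPM in livers, 57.2 times higher (edgeR adjusted p = 0.0001), and 9.13 to 27.1 TPM in hepatocyte preparations, 21.8 times higher (edgeR adjusted p = 0.00053). Ddit4, an inhibitor of mTORC1 signaling, was 5.17 and 6.72 times higher (edgeR adjusted p = 0.0063 and 0.0033), and Tgm2, a transglutaminase, 2.53 and 2.68 times higher (edgeR adjusted p = 0.0037 and 0.0018). Dusp1, a MAP kinase phosphatase, was 3.63 times the liver level (edgeR adjusted p = 0.00099), Pdk4, a brake on pyruvate oxidation, 3.13 times (0.039) and Angptl4, an inhibitor of lipoprotein lipase, 2.05 times (0.013). Pdk4 lost its call without any 1 of the livers (0.059 to 0.096) and with limma-voom (0.12). Its samples in spheroids were at 13.4 and 46.1 TPM, and without the second its log2 fold change dropped from 1.65 to 0.32 (0.58). Angptl4 was lost without the second liver (0.053) or the second spheroid sample (0.085), and with limma-voom or the replicate block its log2 fold change was just under 1.

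Against hepatocyte preparations 4 of 18 genes of this list were higher in spheroids and 2 lower, with a median of 0.11. Anxa1, an anti-inflammatory annexin, was 2.07 times higher, at 17.5 and 25.3 against 7.24 to 9.13 TPM (edgeR adjusted p = 0.045), and lost its call with DESeq2, with limma-voom, with the replicate block and without the second spheroid sample or any 1 hepatocyte preparation (0.066 to 0.26). Zfp36, which encodes an RNA-decay factor, was 4.76 times lower (edgeR adjusted p = 0.0043). Irs2, an adaptor of the insulin receptor, was 7.60 times lower, at a mean of 0.583 against 3.68 TPM (edgeR adjusted p = 0.013), and not called without the first (0.083) or second (0.058) spheroid sample. Zfp36 and Dusp1 were also the 2 genes of the list called in hepatocyte preparations against livers, 6.14 and 6.04 times higher (edgeR adjusted p = 0.016 and 0.020). In explants against irises 2 of 17 were higher and none lower, Errfi1, an inhibitor of EGF receptor signaling, by 4.65 times (edgeR adjusted p = 0.0053) and Cdkn1a by 2.64 times (edgeR adjusted p = 0.0081), the latter lost without iris 1 (0.053).

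Targets known from liver went in both directions in spheroids. Against livers 2 of 15 were higher and 7 lower, with a median of -0.74, and against hepatocyte preparations 1 was higher and 2 lower, with a median of -0.73. Sult1e1, the estrogen sulfotransferase, rose from 1.70 to 3.72 TPM in livers and 2.82 to 3.62 TPM in hepatocyte preparations to 624.9 and 1027 TPM in spheroids, 256 and 206 times higher (edgeR adjusted p = 5.9e-05 and 4.7e-05). Igfbp1, an insulin-like growth factor binding protein, was at 1456 and 1458 TPM in spheroids against 315, 50.3 and 42.8 TPM in livers, 10.1 times higher (edgeR adjusted p = 0.014), though not without the second liver (0.053). Orm1, an acute phase glycoprotein, was 8.65 times lower than in livers (edgeR adjusted p = 0.0014) and 9.78 times lower than in hepatocyte preparations (edgeR adjusted p = 0.0007). Pck1, the rate-limiting enzyme of gluconeogenesis, was 6.92 and 5.79 times lower (edgeR adjusted p = 0.0082 and 0.014).

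Sds, a serine dehydratase, was 11.4 times lower in spheroids than in livers (edgeR adjusted p = 0.029) and Got1, an aspartate aminotransferase, 2.31 times lower (edgeR adjusted p = 0.033). Sds was not called without the second liver (0.053) or second spheroid sample (0.086), nor Got1 without the second liver (0.054), the first spheroid sample (0.098) or the second (0.11), and without the first liver its log2 fold change no longer passed -1 (adjusted p 0.019). Tat, the tyrosine aminotransferase often taken as the model hepatic target of the receptor, was at 769 and 1030 TPM in spheroids against 990 to 1650 TPM in livers and was not called in either comparison. Tdo2, which opens tryptophan breakdown, and G6pc, the last enzyme of glucose release, were not called in them either. None of the 14 genes tested was called between hepatocyte preparations and livers, where the median was 0.02.

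**Figure D4:**
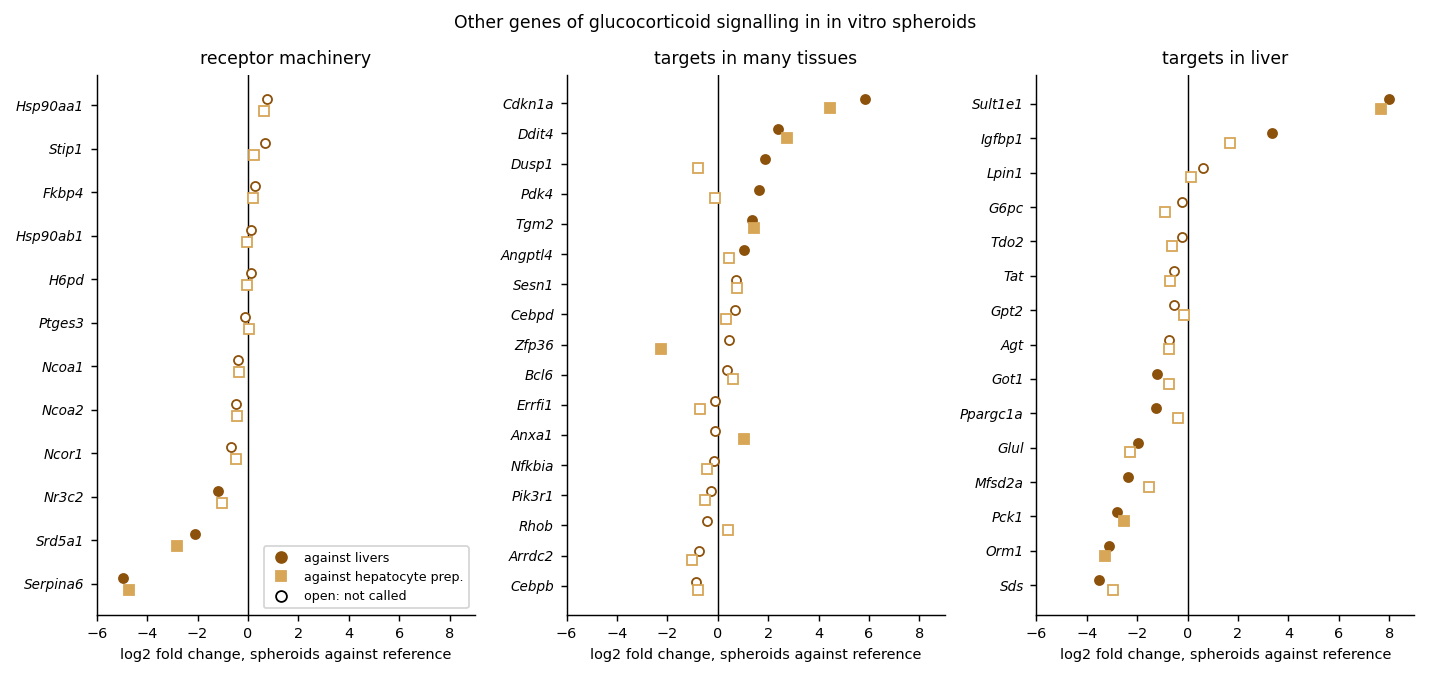
Log2 fold change (horizontal axes) in in vitro spheroids of the tested genes of the receptor machinery, of targets in many tissues and of targets in liver. Brown circles are against livers, yellow squares against hepatocyte preparations, and open symbols were not called. Serpina6 lies near -5 and Sult1e1 near 8 in both, while chaperones and coregulators lie within 1 of 0.

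In explants against irises, 8 of 15 liver targets were higher and none lower, with a median of 2.97, beside 8 of 8 hepatocyte markers. Agt, the angiotensinogen gene, was 21 times higher (edgeR adjusted p = 0.00077), G6pc 16.1 times (0.0041), Tdo2 13 times (0.0015), Gpt2, an alanine aminotransferase, by a log2 fold change of 3.32 (0.0015) and Tat 15.1 times (0.011). Sult1e1, at 3.93 to 22.8 TPM in explants against 2.07 to 2.44 TPM in irises, was 5.39 times higher (edgeR adjusted p = 0.031), while its level in spheroids kept in vitro was 625 TPM or more. Tat was not called without iris 1, 2 or 3 (0.054 to 0.063), nor Sult1e1 without any 1 iris or explant 5 (0.060 to 0.12). Tat and Sult1e1 were also lost with limma-voom (0.12 and 0.14), as was G6pc (0.095).

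Immediate early genes, which respond within minutes to handling and stress, were set beside Dusp1 and Zfp36. In hepatocyte preparations 7 of 11 tested were higher than in livers and none lower, with a median of 3.27 against 0.0092 for all genes. Fos, a subunit of AP-1, stood at 215 to 502 TPM against 2.52 to 4.15 TPM (edgeR adjusted p = 0.0009), and Egr1, Junb, Ier2 and Btg2 were 19.7, 9.66, 7.74 and 6.18 times higher (edgeR adjusted p = 0.014, 0.014, 0.016 and 0.039). Fosb was at 6.35 to 25.6 TPM against at most 0.352 TPM (edgeR adjusted p = 0.017). Preparation 1, the lowest of its group in metallothioneins, was the lowest in Fos (215 against 341 and 502 TPM), Zfp36 (325 against 632 and 694 TPM) and Dusp1 (101 against 202 and 291 TPM). Fos alone of these kept its call whichever sample was left out. Dusp1, Zfp36, Fosb, Junb, Egr1, Ier2 and Btg2 lost theirs without hepatocyte preparation 3 (0.073 to 0.14), all but Junb and Egr1 without hepatocyte preparation 2 (0.053 to 0.12), all 7 without liver 2 (0.056 to 0.10), and Dusp1 and Btg2 without liver 3 (0.059 and 0.083). With limma-voom, where 20 genes were called in all, Dusp1, Fosb, Egr1, Ier2 and Btg2 were lost (0.058 to 0.070), and Btg2 also with the replicate block (0.051).

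Spheroids were lower than hepatocyte preparations in 6 of 11 immediate early genes and higher in 2, Klf6 by 18.4 times (edgeR adjusted p = 4.7e-05) and Ier3 by 4.23 times (edgeR adjusted p = 0.028). Fos was 10.3, Fosb 14.2, Junb 5.12 and Egr1 2.75 times lower (edgeR adjusted p = 0.0052, 0.0091, 0.0021 and 0.048). Egr1 lost its call without hepatocyte preparation 2 (0.099) or 3 (0.12) and without the first (0.22) or second (0.099) spheroid sample, Ier3 without preparation 1 or 3 (0.065 and 0.064) or the first spheroid sample (0.17), and Fosb without the first spheroid sample (0.074). With limma-voom Egr1 (0.057) and Fosb (0.063) were lost, and Egr1 also with library size alone (0.069) and in a single fit of all groups (0.22). Against livers, spheroids were higher in 8 of 10 and lower in none, with a median of 2.53, among them Klf6 by 13 times (edgeR adjusted p = 0.0022), Fos by 12.1 times (0.0028), Atf3 by 9.03 times (0.0018), Btg2 by 4.95 times (0.016), Jun by 4.50 times (0.0018) and Ier2 by 2.38 times (0.025). Ier2 was lost without the second liver (0.071), the third liver (0.050) or the second spheroid sample (0.18), and Btg2 without the second liver (0.067) or the second spheroid sample (0.11). In explants against irises Atf3, Junb and Jun were 5.62, 3.09 and 2.26 times higher (edgeR adjusted p = 0.0004, 0.015 and 0.00077) and none of 11 was lower, and Junb was lost without iris 1, 2 or 3 (0.060 to 0.078) and with limma-voom (0.055).

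Acute phase genes, which glucocorticoids and interleukin-6 raise together in liver, gave 1 gene higher and 3 lower of 8 in spheroids against hepatocyte preparations and 1 higher and 2 lower of 8 against livers. The serum amyloid genes Saa1 and Saa2, near-identical copies between which the counts may be split unevenly, were at 55.9 to 84.2 and 23.7 to 37.4 TPM in spheroids against 714 to 1912 and 653 to 1786 TPM in livers, 19.8 and 38.3 times lower (edgeR adjusted p = 0.0013 and 0.0012). They were 5.81 and 6.54 times lower than in hepatocyte preparations (edgeR adjusted p = 0.0018 and 0.0015). Lcn2, which encodes an iron-withholding lipocalin, was 18.7 times higher than in hepatocyte preparations (edgeR adjusted p = 0.0018) and 3.35 times higher than in livers (edgeR adjusted p = 0.040), the latter lost without liver 2 (0.075) or either spheroid sample (0.12 and 0.11) and with DESeq2 (0.099). Socs3, the feedback inhibitor of that cytokine pathway, was 42.7 times lower in spheroids than in hepatocyte preparations (edgeR adjusted p = 0.0017), which themselves were 20.8 times above livers (edgeR adjusted p = 0.0044). Of the 6 macrophage markers, whose cells also make such proteins, 3 were called higher in spheroids than in hepatocyte preparations, with sums of 348 to 456 against 81.4 to 148 TPM. Against livers, whose sums were 209 to 576 TPM, 1 was called higher and 2 lower. The part of macrophages in these values was not tested.

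Hepatocyte preparations had less Saa1 and Saa2 than livers, by 3.57 and 6.16 times (edgeR adjusted p = 0.044 and 0.031). Saa1 lost its call without any 1 of hepatocyte preparations 1, 2 and 3 or livers 2 and 3 (0.062 to 0.16), and Saa2 without hepatocyte preparation 2 (0.097) or 3 (0.14), and both with limma-voom (0.072 and 0.068). In explants 5 of 7 acute phase genes tested were higher than in irises and none lower. Haptoglobin (Hp) was 9.21 times higher (edgeR adjusted p = 0.00012) and Fgl1, a fibrinogen-like protein of liver, 10.2 times (0.0015), while Saa1, Saa2 and Socs3 were 4.67, 4.54 and 2.29 times higher (edgeR adjusted p = 0.032, 0.047 and 0.049). These last calls were lost without each iris in turn (0.059 to 0.17) and without several of the explants (Saa1 without explant 2 or 5, 0.064 and 0.050, Saa2 without explant 1, 2, 5 or 6, 0.061 to 0.089, Socs3 without explant 4 or 5, 0.052 and 0.075, and without explant 2, where its log2 fold change was no longer past 1). They were also lost with limma-voom (0.15, 0.27 and 0.11), and Socs3 with library size alone (0.051), a single fit of all groups (0.082) and the replicate block (0.10). Macrophage markers rose in the same comparison, 3 of 6 being called (Adgre1 by 4.67, Lyz2 by 2.51 and Cd14 by 2.41 times), with sums of 637 to 1470 TPM in explants against 431 to 468 TPM in irises. The 8 hepatocyte markers were all called higher there as well. Mean levels of Hp, Fgl1, Saa1 and Saa2 were 2426, 279.8, 1256 and 1067 TPM in livers. In irises these means were 136.4, 6.02, 29.5 and 19.3 TPM. Socs3 went the other way, with a mean of 9.49 TPM in livers against 25.9 TPM in irises. The part of macrophages or of liver tissue in the acute phase and immediate early genes of explants was not tested.

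Subtracting the iris share gave levels for the rest of each explant, of whatever cell type, that were unstable for most members. The share times the mean iris TPM was taken from each explant and the rest divided by the remaining share, and the result fell below 0 where the iris term exceeded the measured level. Tsc22d3 was below 0 in 5 of 5 explants, from -305.5 to -9.57. Zbtb16, Klf9, Per1 and Mt1 were below 0 in 2 explants each and Fkbp5, Sgk1 and Mt2 in 1 each. Hsd11b1 and Nr3c1 were above 0 in all 5, at 134 to 275 and 10.5 to 21.8, beside liver means of 383.8 and 38.2 TPM. The mean of Nr3c1, 14.8, was 27.3 without iris 2 and 5.69 without iris 3. Sgk1 ran from -59.8 to 672.0, its highest value being in explant 1, where iris made up 82%. In the authors' corrected table Tsc22d3 is listed at 0 in all explants.

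Genes whose pattern over the 16 samples was most like that of Tsc22d3, Fkbp5 and Mt2 were found by the root mean square difference between log2(TPM + 1) profiles, each centred on its own mean, among 13666 genes with a mean of at least 5 TPM. For Tsc22d3, whose own profile had an SD of 0.43, they were Naa15, Elp6 and Rbbp6 at differences of 0.25, 0.25 and 0.26. Fkbp5, with an SD of 0.91, was most like Gm26880, Baiap2 and Ripk4, at 0.46, 0.51 and 0.51. Baiap2 averaged 98.7 TPM in spheroids and 18.9 to 28.1 TPM in the other groups. Mt2, with an SD of 1.45, was most like Gm27505, Tuft1 and Gm28006 at 0.31, 0.43 and 0.44, and not Mt1. Gm27505 and Gm28006 are annotated within Neat1 and share all their exon bases with it, so their reads cannot be told apart from those of Neat1.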

How the data were processed

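RNA from explants, irises, livers, hepatocyte preparations and spheroids was sequenced with Smart-seq3. The authors aligned reads to mm10 with TopHat2, removed duplicates (UMI-tools dedup) and counted reads per gene with featureCounts. The files per library hold these counts as deposited, without normalization, and the 3 technical libraries of each of the 16 samples were summed. The deposited TPM values before the iris correction, which the authors made from counts and gene lengths, gave all levels. The authors' corrected TPM table, treated as a score because it can hold subtracted values set to 0, served only to solve the iris shares and to quote its zeros. In its column for explant 4 the share had been subtracted from the iris mean rather than multiplied with it, and the share was solved accordingly. The 92 spike-in rows, with 418 counts in all, were removed.

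Groups follow the labels. The members and the other lists were chosen with earlier results of these data known. Fits used R 4.3.3 with edgeR 4.0.16 (filterByExpr, TMM, glmQLFit and glmQLFTest), 1 comparison at a time over all genes passing the filter, with a threshold of 0.05 on the adjusted p and of 1 on the log2 fold change, and SE taken as the log2 fold change over the square root of F. The fit was tested on simulated counts with known changes. Alternatives were DESeq2 1.42.0, limma-voom (limma 3.58.1), RLE size factors, library size alone, no filter on low counts, a single fit of all 5 groups, undoing a limit on distinct read starts, the replicate number as a block, no limit on fold change and leaving out each sample. The text names all 10 members and, per list and comparison, all called genes where there were at most 6, otherwise 3 from each end of the ordered log2 fold changes of the called genes. Tat, Tdo2 and G6pc in spheroids, H6pd and uncalled clock genes, and the clock genes of single hepatocyte preparations, were named after their values were seen. Likeness used log2(TPM + 1). Total counts of 2718518 to 6789648 per sample limit the precision of genes with few counts, and counts per gene carry counting error beside the spread between samples. Reads were counted without strand in the files used, and no member shares exon bases with another gene.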

Additional observations from a re-analysis of the deposited data

Results flagged for a closer look

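In 5 instances the highest or lowest explant stood apart from the other 4, its gap to the nearest being more than 0.71 of the range of the group. The explants were examined in this way for 60 genes, and chance flags about 1 in 20 groups of samples. Tsc22d3 was at 151 TPM in explant 4 and 114 to 121 TPM in the others, a gap of 0.81 of the range. Fkbp5 was at 7.61 TPM in explant 1 and 12 to 13.3 TPM in the others, a gap of 0.774. Among other genes, Socs3 was at 101 TPM in explant 2, Fos at 36.1 TPM in explant 5 and Sds at 68.3 TPM in explant 2.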

How the results depend on the processing

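No called value reported here changed direction under the alternatives run. In explants against irises 1085 genes were called, 583 with limma-voom, 1975 with no limit on fold change and 583 (without iris 1) to 1259 (without explant 4) with 1 sample left out. With no limit on fold change 1 member, Tsc22d3, was called there, and of the other glucocorticoid genes 11 were called, 6 with limma-voom and 7 to 13 with 1 sample left out. In hepatocyte preparations against livers the 333 genes called became 647 with DESeq2, 20 with limma-voom, 1205 with no filter, 1140 in a single fit and 8 (without hepatocyte preparation 3) to 448 (without hepatocyte preparation 1) with 1 sample left out, the cause of which was not tested. Beside 0 members called there, 1 was called with DESeq2 (Per1), 2 with no filter, 2 in a single fit (Mt2 and Per1) and 0 to 2 with 1 sample left out. The 2 other glucocorticoid genes called became 4 with DESeq2, 1 with limma-voom, 6 with no filter, 5 in a single fit and 0 to 3 with 1 sample left out. At an unadjusted p under 0.05, 3100 genes passed there and 4626 in explants against irises. In spheroids against hepatocyte preparations, 3 to 5 members were called with 1 sample left out, 3 without the first spheroid sample. Against livers 2492 genes were called, 3894 with no limit on fold change, and of 18 other glucocorticoid genes 11 to 16 were called with 1 sample left out, fewest without liver 2. Leaving out 1 of 2 spheroid samples assumes that the other varies like the group it is compared with. Deviations of same-numbered samples from their group means had correlations of -0.108 to 0.193. Samples of unlike number were not compared, so these values cannot decide whether the numbers pair the samples. With the replicate block 843, 408, 1985 and 2513 genes were called in the 4 comparisons. Their order is explants, hepatocyte preparations, and spheroids against hepatocyte preparations and livers. The block gave 1 member called in hepatocyte preparations against livers (Per1). Of the 3 genes most like Tsc22d3, 0 remained without a filter on low TPM, and 1 of the 3 most like Fkbp5.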
